A study of Mus musculus with 142 samples.

Results

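A set of 7 imprinted genes that lie apart from each other in the mouse genome, Peg3, Peg10, Mest, Plagl1, Gnas, Igf2r and Grb10, was followed by replication timing (RT) of their musculus and castaneus homologs. Each locus was taken as all 50 kb windows that overlap the gene body in mm10 or the 200 kb on either side of it, which gave 70 of the 49264 windows of the table for 7 of the 50337 gene loci that could be tested. The musculus homolog replicated earlier at Plagl1, by 0.32 ± 0.12 on the log2 scale (SD, n = 53 clones), and the castaneus homolog replicated earlier at Igf2r, where musculus minus castaneus was −0.29 ± 0.08 (SD, n = 53 clones), a size that was not reached over the gene body alone (−0.16). The other 5 loci differed by 0.13 or less. Both directions occurred among the paternally expressed genes and among the maternally expressed ones.

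An imprinted gene is expressed mainly from the copy inherited from one parent, because that copy or the other one carries DNA methylation laid down in the germ line. Imprinted regions are known for asynchronous replication of their homologs in several cell types. Imprinted expression of some genes, Igf2r among them, is set up only when ES cells differentiate. Expression was not measured in the values used here, so the expressed copy of each gene is given as background throughout.

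The cells were F121-9, a line of mouse embryonic stem cells (mESCs) from an F1 hybrid of castaneus and musculus mice. They were grown in 2i and LIF and carried CRISPR-mediated deletions in the Dppa2/4 domain of chromosome 16. In most clones the musculus homolog carries the deletions, and the paper used the unmodified homolog as the control. In some clones a deletion is present on both homologs. E/L Repli-seq labels replicating DNA with BrdU (2 h here), sorts cells from early and late S phase, and gives RT as the log2 ratio of early over late reads, so that positive values are early. Values came from 66 libraries of 53 clones in 26 cell lines, each cell line with its own set of deletions. Names join the deleted elements. A, B and C are early replication control elements, OSN with a number marks their OCT4, SOX2 and NANOG sites, TSS their transcription start sites, CL and CR with a size the left or right part of C, and Z a further site of the domain. None of the deletions lies at the 7 loci or on their chromosomes, and no unedited line is among the clones, so each clone served as a sample of the same pair of homologs. All clones descend from 1 hybrid line, so their spread measures variation between clones, not between animals. Many are also related more closely. The paper made COSN12 and COSN123 in COSN1 cells, recovered only 1 clone with COSN123, and introduced further deletions into that clone. The tests below treat all clones as independent, so their p-values can be too small. Which strain was the mother is not given in the sources used here. A difference between the homologs can therefore come with the strain or with the parent of origin, and these cannot be told apart.

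Between 73.8% and 93.8% of all windows held a value in a given profile, and at the 7 loci 98.3% (musculus) and 96.2% (castaneus) of entries did. The values are ratios that were smoothed over 300 kb, so the read depth is unknown and the windows of a locus are not independent. No castaneus value was present on chromosome 11 in 6 clones, so that musculus minus castaneus at Grb10 rests on 47 clones. Another 4 clones lacked values of 1 homolog of chromosomes 13, 14 or 16, where no member lies. In 3 clones, ATSS.BTSS.CTSS A1 and A8 and AOSN.BOSN12.COSN123 D6, the differences over all windows lay farthest from the median clone (root mean square of 0.31 to 0.33, against a median of 0.18). The results were therefore also computed without the 4 clones of these cell lines.

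A locus was called where the adjusted p of limma's test of the mean difference over clones (Benjamini-Hochberg over all gene loci) was at most 0.05 and the difference was at least 0.25. Of the 7 loci, 2 were called, 1 in each direction, against a background of 14.3% of all gene loci. By adjusted p alone, 6 of 7 passed, 3 with musculus earlier and 3 with castaneus earlier, against 63.5% of all gene loci. With so many clones, small differences pass, and from 2 of 7 loci nothing particular to imprinted genes can be read. The median difference was −0.0043 over the 7 loci, which lie in both directions, and −0.0042 over all gene loci. Without the sign, the median size was 0.12 over the 7 loci and 0.06 over all gene loci.

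**Figure D1:**
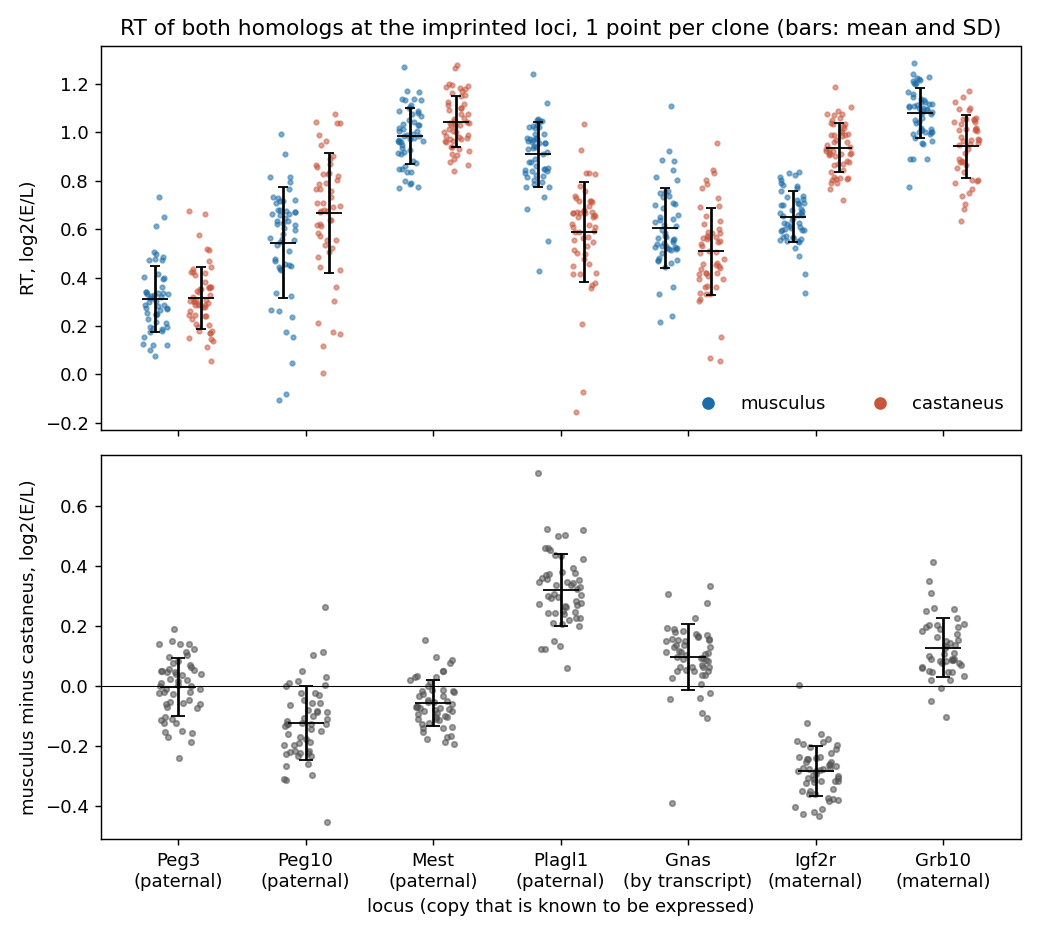
RT of the musculus and castaneus homologs (top) and musculus minus castaneus (bottom) at the 7 loci, in log2(E/L), with 1 point per clone and bars for the mean and SD over clones (n = 53, and 47 for the castaneus homolog and the difference at Grb10). All 53 points lie above 0 at Plagl1 and 52 of 53 lie below 0 at Igf2r, while the points at Peg3 scatter around 0.

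Among the paternally expressed genes, Plagl1, which encodes a zinc-finger transcription factor known to restrain cell proliferation, had the largest difference. The gene lies on chromosome 10 from 13060504 to 13131694 (plus strand), and its locus spans 10 windows. RT of the musculus homolog ranged from 0.43 to 1.24 over 53 clones with a median of 0.94, and RT of the castaneus homolog ranged from −0.16 to 1.04 with a median of 0.62. The difference ranged from 0.06 to 0.71 with a median of 0.30, and musculus was earlier in 53 of 53 clones. The mean levels were 0.91 ± 0.14 for musculus and 0.59 ± 0.21 for castaneus (SD, n = 53), so the ranges of the homologs overlapped between clones although the order was the same within each. The mean difference of 0.32 passed limma's test with an adjusted p of 9.66e-26. Every one of the 10 windows was called, with differences from 0.26 to 0.38, whereas 19.2% of all windows tested were called.

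Igf2r, a maternally expressed gene, encodes the receptor that takes IGF2 to the lysosome. It lies on chromosome 17 from 12682406 to 12769664 (minus strand), with 11 windows. RT of the musculus homolog ranged from 0.34 to 0.83 with a median of 0.66, and RT of the castaneus homolog ranged from 0.72 to 1.19 with a median of 0.93. castaneus was earlier in 52 of 53 clones, and the exception was ATSS.BTSS.CTSS C4, where the homologs were nearly level at 0.00099. The mean difference of −0.29 (from −0.43 to 0.00, median −0.28) had an adjusted p of 3.06e-30 in limma's test. It was −0.29 without the cell lines that stand apart. The call was lost over the gene body (−0.16), with 100 kb on either side (−0.18) and with the median of the windows (−0.14).

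The promoters of both called loci are shown to give the CG content of the genes whose homologs differed. Bases of the RefSeq promoter window on GRCm38.p6 (mm10) are given 5′ to 3′ on the strand of the gene. For Igf2r these are the bases before the RefSeq start. For Plagl1 they are those before the first GENCODE transcript start within the window. Each CG dinucleotide, the site of DNA methylation, is in capitals. The reference sequence holds no strain differences. That of Plagl1 is chr10:13090582-13090690 (plus strand, 109 bases, 7 CG), which lies inside the GENCODE gene body, downstream of its outermost start, and that of Igf2r is chr17:12769707-12769956 (minus strand, 250 bases, 27 CG).
Plagl1: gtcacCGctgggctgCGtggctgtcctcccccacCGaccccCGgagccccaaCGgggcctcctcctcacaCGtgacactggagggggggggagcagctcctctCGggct
Igf2r: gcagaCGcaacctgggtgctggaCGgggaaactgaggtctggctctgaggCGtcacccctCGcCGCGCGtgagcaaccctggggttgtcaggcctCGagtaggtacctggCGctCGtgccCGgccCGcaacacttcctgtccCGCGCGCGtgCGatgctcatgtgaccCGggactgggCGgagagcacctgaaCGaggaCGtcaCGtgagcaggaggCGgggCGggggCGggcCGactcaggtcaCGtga
In the full RefSeq promoter windows of 300 bases (250 before to 50 after the start), Igf2r held 34 CG, a number reached by 7.98% of 31396 autosomal promoters, and Plagl1 held 26, reached by 17.4%. The motif TGCCGC, which is bound by ZFP57, a protein that protects imprints, was searched on both strands and holds a CG itself, so that it overlaps the CG count. It occurred once in the Plagl1 window and not in that of Igf2r, and 11.6% of all promoters held it. Of the members, 6 had 12 promoter entries, and 4 of these entries held the motif (2 overlapping ones of Mest and 1 each of Plagl1 and Grb10). All 12 held more CG than the median promoter, which has 7, but some entries of the same gene overlap. The counts ran from 8 at an entry of Mest, reached by 49.0% of promoters, to 45 at an entry of Grb10, reached by 2.00%.

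The 2 called loci differed in shape. At Plagl1 the curves of the homologs ran side by side, with the musculus curve above, through 27 consecutive called windows with centres from 936 kb upstream to 364 kb downstream of the gene's start. The difference in this stretch was largest 286 kb upstream, at 0.46 ± 0.15 (SD, n = 53), where musculus stood at 0.90 and castaneus at 0.45. At the window of the gene's start the levels were 1.05 and 0.80.

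At Igf2r the homologs differed by less than the size of a call from the gene's start to the upstream end of the locus and parted downstream. In the window that holds the start, RT was 1.12 on musculus and 1.23 on castaneus, and the difference of −0.11 ± 0.16 (SD, n = 52) was below the size needed for a call. Going downstream, musculus fell to −0.13 in the window centred 245 kb from the start, whereas castaneus reached its minimum of 0.45 at 195 kb and then rose again. The last window of the locus, 295 kb downstream, had −0.13 on musculus and 0.83 on castaneus, a difference of −0.97 ± 0.16 (SD, n = 53), and 1.32% of windows of similar mean RT had a difference of this size or more. Beyond the locus the gap widened to −1.33 ± 0.24 (SD, n = 53) at 845 kb downstream, where musculus stood at −0.17 and castaneus at 1.16. Only 4 of the 11 windows of the Igf2r locus were called, and these were the 4 farthest downstream. Upstream of the locus, single windows beside windows without values passed the size of a call in opposite directions, at 0.34 (−355 kb) and −0.36 (−455 kb).

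The difference at Igf2r therefore depends on how much of the surroundings is counted. With 500 kb on either side it was −0.49, and over only the windows with values in every library it was −0.45. At Plagl1 it was 0.29 over the gene body and 0.32 with 500 kb.

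**Figure D2:**
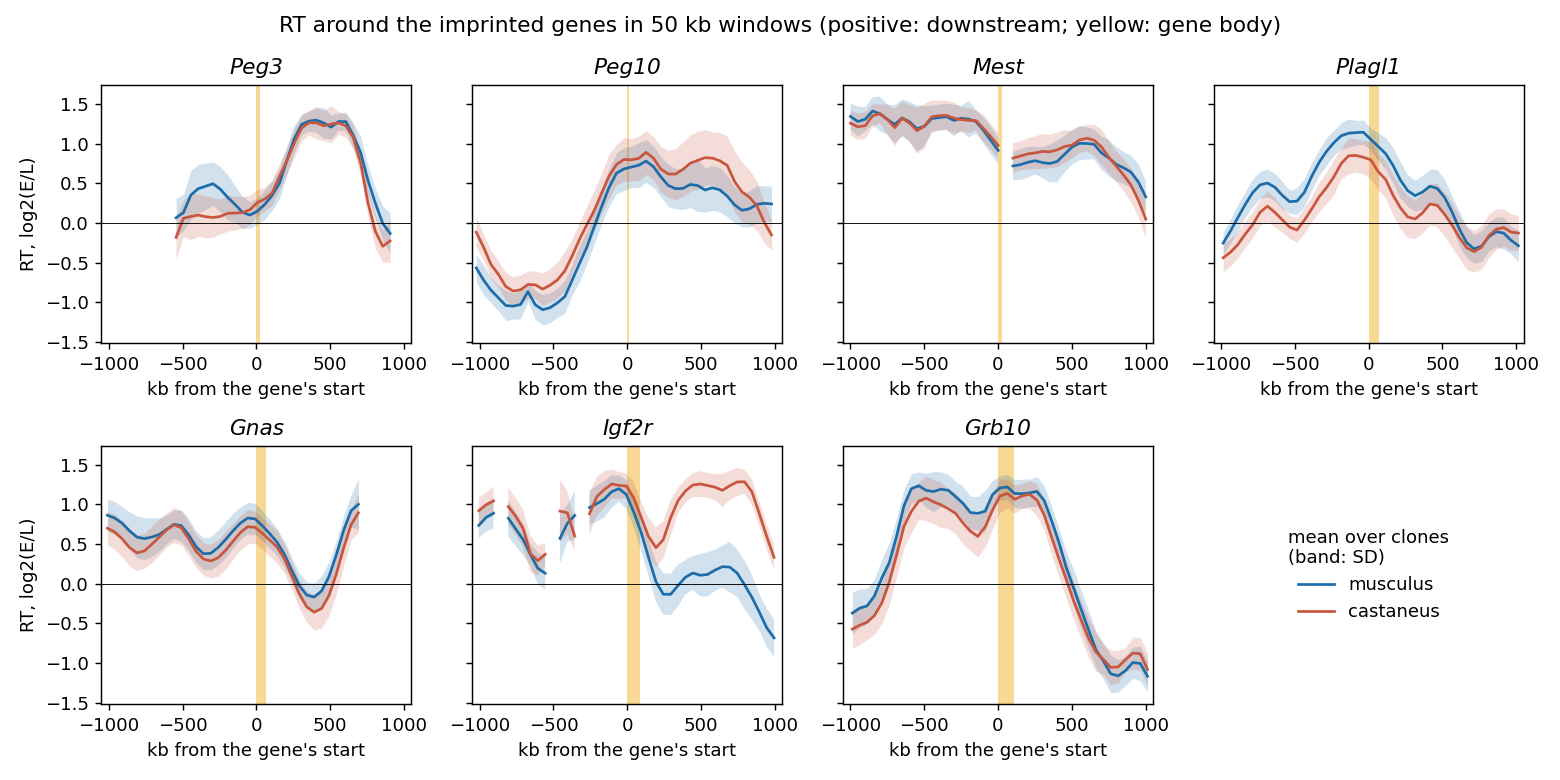
Mean RT in log2(E/L) of the musculus (blue) and castaneus (red) homologs over clones, with bands for the SD, in 50 kb windows against the distance in kb from the start of each gene (positive is downstream, yellow marks the gene body). The curves run apart along most of the Plagl1 panel and downstream of Igf2r, where castaneus rises to above 1 before falling to 0.33 at the end of the panel and musculus falls from near 0 to −0.68. Windows with values in fewer than 10 clones are not drawn.

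Peg3, a paternally expressed zinc-finger gene on chromosome 7 (6703892 to 6730431, minus strand), has 9 windows. RT of musculus ranged from 0.07 to 0.73 with a median of 0.30, and RT of castaneus ranged from 0.05 to 0.68 with a median of 0.30. The mean difference was −0.0043 ± 0.10 (SD, n = 53) with an adjusted p of 0.800 by limma, and musculus was earlier in 27 clones and castaneus in 26. This mean joins opposite signs, since the windows ran from −0.11 at the gene's start to 0.20 in the window 195 kb upstream, and the largest difference within 1000 kb, 0.43 ± 0.22 (SD, n = 53), lay 295 kb upstream. It was −0.11 over the gene body (adjusted p = 0.000131, limma), −0.05 with 100 kb on either side (0.00335) and 0.09 with 500 kb (2.75e-11). None of the 9 windows was called.

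Peg10, a paternally expressed gene derived from a retrotransposon and required for the placenta, lies on chromosome 6 from 4747306 to 4760517 (plus strand). RT of musculus ranged from −0.11 to 1.00 with a median of 0.61, and RT of castaneus ranged from 0.01 to 1.07 with a median of 0.69. castaneus was earlier in 45 of 53 clones. The mean difference of −0.12 ± 0.12 (SD, n = 53) passed the adjusted p (2.70e-09, limma) but not the size, and all 10 windows lay between −0.20 and −0.09. With 500 kb on either side it was −0.21. Within 1000 kb of the start, 20 of 41 windows were called with castaneus earlier and 1 with musculus earlier.

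Mest, a paternally expressed gene for a protein of the alpha/beta hydrolase family, lies on the same chromosome from 30723547 to 30748465 (plus strand). RT of musculus ranged from 0.77 to 1.27 with a median of 0.99, and RT of castaneus ranged from 0.84 to 1.28 with a median of 1.03. The mean difference of −0.06 ± 0.08 (SD, n = 53) passed the adjusted p (5.24e-06, limma) but not the size, with castaneus earlier in 41 of 53 clones. It was −0.02 with an adjusted p of 0.0709 when each library was centred on its median over the chromosome.

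Gnas encodes the stimulatory G protein alpha subunit and lies in a complex locus on chromosome 2 (174284320 to 174346744, plus strand) with maternal, paternal and biallelic transcripts. RT of musculus ranged from 0.22 to 1.11 with a median of 0.57, and RT of castaneus ranged from 0.06 to 0.95 with a median of 0.51. The mean difference was 0.10 ± 0.11 (SD, n = 53), with musculus earlier in 47 of 53 clones and an adjusted p of 8.70e-08 by limma, and it was below the size of a call. The lowest value, −0.39, was that of ATSS.BTSS.CTSS A8, and the highest, 0.33, that of ATSS.BTSS.CTSS C4, which belong to a cell line that stands apart. Without these cell lines the difference was 0.09 ± 0.08.

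Grb10, an adaptor protein that dampens insulin and IGF1 receptor signalling, is maternally expressed outside the brain and lies on chromosome 11 from 11930508 to 12038683 (minus strand). RT of musculus ranged from 0.77 to 1.29 over 53 clones with a median of 1.09, and RT of castaneus ranged from 0.63 to 1.17 over 47 clones with a median of 0.97. The mean difference was 0.13 ± 0.10 (SD, n = 47), with musculus earlier in 44 of 47 clones and an adjusted p of 4.72e-11 by limma, below the size of a call. It was 0.08 over the gene body. The difference was smallest downstream of the gene, at 0.01, and reached 0.28 ± 0.24 in the window 136 kb upstream, the 1 window of 11 that was called.

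In the 6 clones without castaneus values on chromosome 11, RT of the musculus homolog at Grb10 ranged from 1.11 to 1.23 with a median of 1.14. In the other 47 clones it ranged from 0.77 to 1.29 with a median of 1.08. The 6 clones were A.B.COSN123 2E.1 and 5A.7, AOSN.COSN12 F3, BOSN1.COSN123 C4 and E6, and BOSN12.COSN123 A2. They thus lay inside the range of the others but all above their median. The means were 1.16 ± 0.05 in the 6 clones and 1.07 ± 0.11 in the other 47 (SD), and this gap was not tested. Values of the 6 clones entered no difference.

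By level, the musculus homologs ranked from Grb10 (1.08) through Mest (0.99), Plagl1 (0.91), Igf2r (0.65), Gnas (0.60) and Peg10 (0.54) to Peg3 (0.31). Of these neighbours, only Plagl1 and Igf2r were apart by more than the SD of their difference between clones (0.26 against 0.17). The castaneus homologs ranked from Mest (1.04) through Grb10 and Igf2r (0.94 each), Peg10 (0.67), Plagl1 (0.59) and Gnas (0.51) to Peg3 (0.32), and only Gnas and Peg3 were apart by more than that SD (gap of 0.192 against 0.189). Plagl1 thus stood above Igf2r on musculus and below it on castaneus.

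To set the differences against loci of the same timing, each locus was placed among gene loci on other chromosomes with a mean RT of both homologs within 0.1 of its own. A difference as large as that of Plagl1 or larger was found in 11.81% of 2861 such loci, and one as large as that of Igf2r in 13.44% of 3087. The shares were 29.8% at Grb10, 54.7% at Peg10, 63.6% at Mest, 65.4% at Gnas and 98.9% at Peg3. Over single windows, the median share of windows of similar timing with at least the difference of a member window was 17.2% at Plagl1, 22.7% at Igf2r, 34.9% at Grb10 and 57.9% to 80.4% at the other 4 loci. The differences of the 5 uncalled loci were thus of a size common among loci of their timing, and those of Plagl1 and Igf2r were in the upper part of the range without standing outside it.

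**Figure D3:**
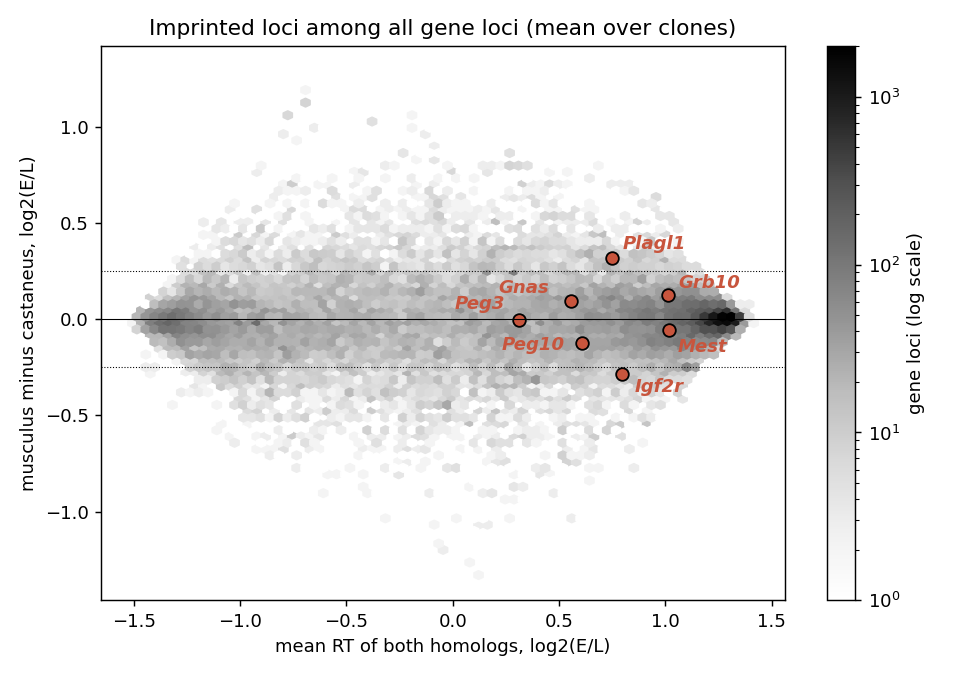
Difference between the homologs (musculus minus castaneus, log2(E/L)) against the mean RT of both homologs for all gene loci (grey, darker for more loci, log scale) and the 7 imprinted loci (red), as means over clones. Dotted lines mark the size of 0.25 used in calls, which Plagl1 and Igf2r pass on opposite sides.

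For each member, the locus on another chromosome with the smallest mean absolute difference from it, over both homologs and all clones with values, was sought. The closest to Plagl1 was Mir8118 on chromosome 4, at 0.12 (musculus at 0.93, castaneus at 0.59, n = 53), and the closest to Igf2r was 5830411N06Rik on chromosome 7, at 0.07 (musculus at 0.67, castaneus at 0.89, n = 53). Exoc4 was closest to Gnas (0.10), Vps37a to Peg10 (0.13) and Tmod3 to Grb10 (0.09), while loci named only by a clone, AC121603.2 and AC138790.3, were closest to Peg3 (0.09) and Mest (0.08), each tied with a further locus at the same distance. None of these is on the list of imprinted genes used here.

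Imprinted genes near the members were taken from a list of 15, whose loci, except that of Tfpi2, share windows with those of the members. Of these 15, 3 were called and all 3 had castaneus earlier, against a background of 7.62% of gene loci called in that direction and 6.68% in the other. Slc22a3 and Slc22a2, organic cation transporter genes downstream of Igf2r that are imprinted in the placenta, had differences of −0.75 ± 0.13 and −0.50 ± 0.10 (SD, n = 53), with castaneus earlier in all 53 clones. RT at Slc22a3 was 0.19 on musculus and 0.94 on castaneus. The other was Tfpi2, near Peg10, a protease inhibitor gene named after its value was seen, at −0.25 ± 0.12 (SD, n = 53). Airn, the noncoding RNA that is transcribed from the paternal copy within Igf2r, was at −0.17 ± 0.09 (SD, n = 53).

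Of 28 other imprinted genes elsewhere on the autosomes, 3 were called (10.7%, against 14.3% of all gene loci), 2 with musculus earlier and 1 with castaneus earlier. The median size of difference of the 28 was 0.05 against 0.06 over all gene loci. Some genes lay just below the size of a call, at −0.248, −0.245 and 0.244, so the share depends on the threshold. Some of the 28 lie close together and share windows, so they are not independent loci. The 3 called genes are paternally expressed, as are 18 of the 28. Nap1l5, a nucleosome assembly protein gene, differed by 0.34 ± 0.14 and Gab1, an adaptor of receptor tyrosine kinases, by 0.30 ± 0.17, both with musculus earlier in 53 of 53 clones. Slc38a4, an amino acid transporter gene, differed by −0.46 ± 0.14, with castaneus earlier in 53 of 53 clones.

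The spread between clones was set beside that of loci of the same timing. The SD of the difference exceeded the median SD of loci of similar RT on other chromosomes at 3 of the 7 loci, Peg10 (0.12 against 0.11, higher than in 69.5% of the loci), Plagl1 (0.12 against 0.10, higher than in 69.1%) and Gnas (0.11 in both, higher than in 55.3%). At Mest it was 0.08, above that of 8.41% of such loci. Without the cell lines that stand apart, these shares were 9.34% at Gnas, 11.6% at Igf2r and 19.4% at Mest, with SDs of 0.08, 0.07 and 0.08. For 11 clones, 2 or more libraries were made, and the pooled SD between repeat libraries of a clone was 0.07 to 0.14, so that the SD between clones was 0.73 to 1.47 times that between repeats.

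Whether the difference varied between cell lines was tested over the 19 cell lines with 2 or more clones (46 clones, 16 cell lines and 40 clones at Grb10). Limma's F-test called 2 of the 7 loci, Peg10 and Plagl1, against 19.0% of all gene loci. At Peg10 (F = 4.91, adjusted p = 0.00196) the mean of a cell line ran from −0.27 ± 0.06 in BOSN1.COSN123 to 0.11 ± 0.14 in ATSS.BTSS.CTSS, and 4 of 19 cell lines were above 0. Both clones of BOSN1.COSN123 (−0.31 and −0.22) lay below the 3 of ATSS.BTSS.CTSS (−0.02, 0.10 and 0.26). The call remained with each cell line left out in turn. Among these was ATSS.BTSS.CTSS (adjusted p = 0.0059 without it), the only cell line that stands apart and has 2 or more clones.

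At Plagl1 (F = 2.95, adjusted p = 0.0279) the mean ran from 0.14 ± 0.12 in A.B.COSN123 to 0.58 ± 0.12 in COSN12, and 19 of 19 cell lines were above 0. The 3 clones of COSN12 had 0.50, 0.52 and 0.71, and in them both homologs lay below their medians over all clones, at 0.43 to 0.73 on musculus and −0.16 to 0.21 on castaneus. COSN12 profiles had values in 90.7% to 93.3% of windows. Without COSN12 the adjusted p was 0.247, and it was 0.0709 without AOSN.B.COSN123 and 0.0501 without CTSS. The clones of a cell line carry the deletions in its name, but not always on the same homologs. In CTSS the deletion is on castaneus in C4 and on musculus in C12. In A.B.COSN123, AOSN.B.COSN123 and BTSS.CTSS, some clones but not others lost an element on both homologs. The clones of a cell line may also share their descent, culture and library preparation. These and the deletions cannot be told apart.

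**Figure D4:**
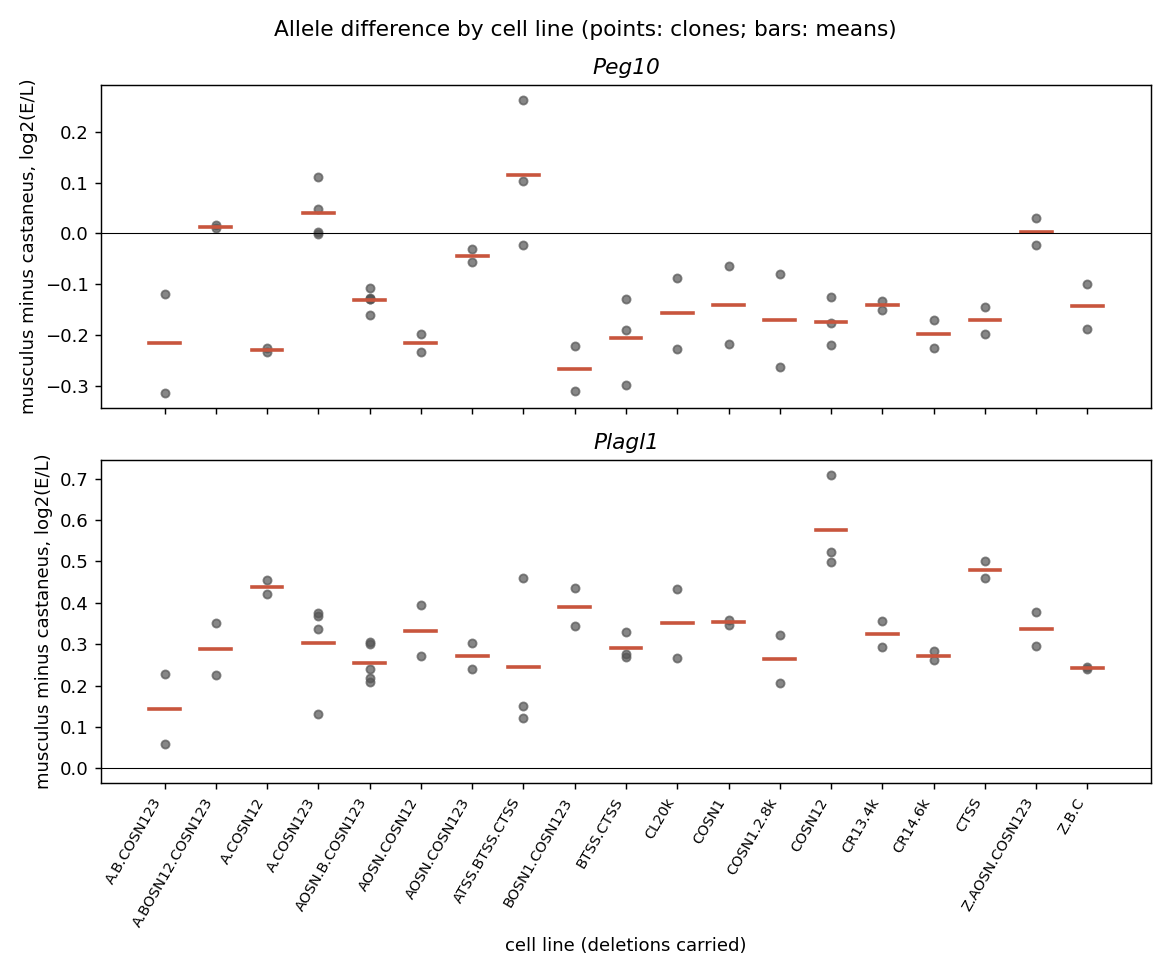
musculus minus castaneus in log2(E/L) at Peg10 (top) and Plagl1 (bottom) for each cell line with 2 or more clones, with a point per clone and a bar for the mean. At Peg10 most cell lines lie below 0 and ATSS.BTSS.CTSS lies highest, and at Plagl1 all clones lie above 0 and COSN12 lies highest.

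The mean RT of both homologs varied between cell lines at 6 of the 7 loci by the same test, against 76.3% of all gene loci. Only Mest was not called (adjusted p = 0.704). The widest range was at Peg10, from −0.02 ± 0.03 in CL20k to 0.93 ± 0.06 in CR13.4k, followed by Plagl1, from 0.28 ± 0.16 in COSN12 to 0.91 ± 0.09 in CR13.4k, and Gnas, from 0.18 ± 0.03 in BTSS.CTSS to 0.80 ± 0.04 in Z.B.C. At Igf2r the adjusted p of 0.0321 became 0.0502 to 0.0721 when ATSS.BTSS.CTSS, BTSS.CTSS, CL20k, COSN1 or CR14.6k alone was left out. It was 0.0547 without ATSS.BTSS.CTSS, the only tested cell line that stands apart. At Grb10 the adjusted p of 0.00771 became 0.0902 with libraries as units and 0.108 without A.COSN123, and at Plagl1 it rose to 0.0645 without COSN12.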

How the data were processed

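F121-9 libraries were analysed from a table of log2 values in 50 kb windows of mm10. Per the labels and the study's methods, the authors trimmed reads (Trim Galore, cutadapt), aligned them to an N-masked genome (bowtie2), assigned them to the homologs by SNPs (SNPsplit), removed duplicates (Samtools), counted them (bedtools), and scaled, quantile-normalized and loess-smoothed the log2(E/L) that they deposited. Tool versions are not given in the sources used here. All 138 columns were used, and 5 libraries (10 samples) were not analysed here. Repeat runs of 3 clones were averaged, then libraries per clone. Loci follow GENCODE vM21. A locus needed values of both homologs in 10 clones. Tests were limma (3.58.1, R 4.3.3) over all gene loci or windows, with Benjamini-Hochberg adjustment. They were checked on simulated data of 50337 loci, a small part of which was shifted. By adjusted p alone, without the size, 100% of shifts of 0.4 and 85% of 0.1 were recovered. The simulated noise was independent between clones and loci, unlike the smoothed values and related clones here. Where nothing says that libraries are separate cultures, their spread may be technical. Members and lists were chosen with earlier results of these data known. Named genes are the 7 members, called genes of the lists with the largest differences (at most 5) and the most alike loci. Other steps used numpy 2.4.6 and pandas 2.3.3 in Python 3.11.15, and plots used matplotlib 3.10.9.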

Additional observations from a re-analysis of the deposited data

Results flagged for a closer look

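The difference between the homologs varied between cell lines at Peg10 (F = 4.91) and at Plagl1 (F = 2.95), by limma's F-test over all gene loci. The mean RT of both homologs varied between cell lines at Peg3 (F = 3.79), Peg10 (F = 4.85), Gnas (F = 4.77), Igf2r (F = 2.22), Plagl1 (F = 5.23) and Grb10 (F = 3.11).

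In 14 comparisons of the clones of 1 cell line at 1 locus (cell lines with 4 or 5 clones), 3 values of 2 clones lay far from the others by Dixon's criterion, where chance gives about 1 in 20. Clone C9 of A.COSN123 had a difference of 0.0358 at Gnas, with 0.15 to 0.17 in the other 3, and 0.131 at Plagl1, with 0.34 to 0.38 in the others. Clone 3C.4 of AOSN.B.COSN123 had 0.194 at Grb10, with 0.04 to 0.06 in the others. No cause was tested.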

How the results depend on the processing

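Plagl1 was called in all alternatives but a size of 0.5 (main and leave-one-out values of 0.31 to 0.32). Igf2r lost its call over the gene body (−0.16), with 100 kb (−0.18), with the median of windows (−0.14) and at a size of 0.5, so that 1 of 7 loci was called in each of the first 3, and 0 at a size of 0.5. Without a size threshold, 6 were called. Over all gene loci, 31968 were called without a size threshold and 1721 at a size of 0.5, against 7197. Leaving out single clones gave 7108 to 7324 calls and 2 of the 7 loci each time. Peg3, which was not called, turned its sign to 0.092 with 500 kb, 0.0042 with libraries as units, 0.011 when centred on all windows, 0.016 when centred on the chromosome, 0.0101 with only clones that have all autosomes, 0.0017 without the cell lines that stand apart (chosen after seeing the data), 0.0011 as the median over clones, and 0.00027 at most when 1 clone was left out (lowest −0.0080). A replicate block over libraries with a replicate number gave 0.049 at Peg3 (reversed), 0.29 at Plagl1 and −0.33 at Igf2r, with 7660 gene loci called, and changed no call at the 7 loci. The numbers do not pair libraries, since the differences between replicates 1 and 2 of 11 clones correlated from −0.37 to 0.29. The smallest p of 1e-05 that the sign-flip permutation test (100000 resamples) can give was reached at 6 loci, and Peg3 had 0.75. Leaving out single cell lines left 6695 to 9894 gene loci and 1 to 2 members called for the difference, and 32113 to 40805 gene loci and 5 to 6 members for mean RT. Directions at the other 6 loci were the same in all alternatives. Depth is unknown, so no limit of counting error can be given.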
